A study of Homo sapiens with 6 samples.

Results

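N6-methyladenosine (m6A) is a methyl mark on adenosines inside messenger RNA. It is placed mostly by the METTL3 and METTL14 complex at short sequence motifs, of which GGACU is a common form, and it is bound by reader proteins and removed by the demethylases FTO and ALKBH5. Across messenger RNAs m6A is known to gather near stop codons, in 3' UTRs and in unusually long internal exons. TRMT10A, the protein knocked down here, is a methyltransferase known for modifying guanosine 9 of transfer RNAs. The measurements described here are the m6A enrichment ratios whose first listed GGACU motif lies in protein-coding sequence.

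The libraries came from HEK293T, a widely used cell line of human embryonic kidney origin, transfected with siRNA against TRMT10A (labelled TRMT10A KD) or with a control siRNA (labelled Ctrl KD). Each arm gave 1 m6A-immunoprecipitated library and 1 input library. The authors' deposited table gives 1 log2 enrichment ratio per line, TRMT10A knockdown over control, a common or unique call, and the position and transcript region of its GGACU motifs. A positive ratio means stronger enrichment in the TRMT10A knockdown. Lines were taken as members when the first entry of the motif list named the coding sequence, which held for 4079 of 26475 lines. By comparison, 1572 lines had their first motif in a 3' UTR, 533 in a 5' UTR, and 20161 listed no motif. Because there was 1 library of each kind per arm and no read counts, the ratios had no replicate check and unknown depth. No test between the arms could be made and no p-value is given. Intervals below are 95% binomial intervals (Wilson for shares, order statistics for medians), which treat lines as separate and cover counting error only.

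The gene columns of the table are sorted apart from the ratio, call and motif columns, so a ratio cannot be read off beside a gene name. Genes were recovered through the motif positions. Of the 621 coding-motif lines with at least 2 motifs, 199 had positions that matched all GGACU motifs of exactly 1 peak, on 191 genes (exact joins). In 198 of these the annotated regions were as listed. Positions shifted on purpose by up to 40 bases gave 2.75 joins on average, so about 1.38% of the exact joins would be false. Lines with 3 or more motifs could also be joined by the gaps between motifs, which brought the joined lines to 256 on 248 genes and covered 84 of the 87 lines with 3 or more motifs. With the last gap altered on purpose, 2019 attempts gave 1 join.

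The stretches below surround motifs of joined lines, with GGACT in capitals as the table writes it. They are taken from GENCODE release 29 transcripts. The first set shows motifs of 3 of the highest joined ratios, PCNX1 (log2 ratio 1.86), CDC23 (1.58) and STIL (1.56).
PCNX1 motif 1: atactggaggtgGGACTtcctgcactggta
PCNX1 motif 2: ggatcaggaactGGACTccacccacctgtc
CDC23 motif 1: cttgatggatttGGACTttatctgtatggt
CDC23 motif 2: gcttcgaaaactGGACTtggttaaagaggc
STIL motif 1: gccttcacatatGGACTtatgtaacccaca
STIL motif 2: aatggaatgatgGGACTatctccagatgca

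The second set shows the motifs of the 3 lowest exact joins, ZSWIM9 (log2 ratio -2.73), TMEM200B (-2.27) and CIAO1 (-2.03).
ZSWIM9 motif 1: agaggaggaggtGGACTgggaacccctggc
ZSWIM9 motif 2: ggacggcacctcGGACTtcttcctggatgg
TMEM200B motif 1: cccagcagctcgGGACTgtgctcaccgaag
TMEM200B motif 2: gggaggaggaggGGACTtgggggcccgggt
CIAO1 motif 1: tgtctgctcagcGGACTctgcccgccccca
CIAO1 motif 2: ggccgacatgaaGGACTcgctggtgctgct

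In hg38 the first PCNX1 motif lies on chromosome 14 at 71105303 to 71105307 (plus strand, exon 33 of 36), and that of CDC23 on chromosome 5 at 138201349 to 138201353 (minus strand, exon 5 of 16). The first STIL motif lies on chromosome 1 at 47280378 to 47280382 (minus strand, exon 13 of 18). The first ZSWIM9 motif lies on chromosome 19 at 48196518 to 48196522 (plus strand, exon 4 of 4), and that of TMEM200B on chromosome 1 at 29120997 to 29121001 (minus strand, exon 2 of 2). The CIAO1 motifs lie on chromosome 2, the first at 96266311 to 96266315 (plus strand, exon 1 of 7). Its first motif is coding in the table but in the 5' UTR of the matched transcript, so the CIAO1 join is the least certain.

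The third set shows tandem repetition. The coding-motif line with the most motifs, 10, was joined by its gaps to SON, a nuclear speckle protein with long repeats. The first 9 motifs recur every 30 bases and the tenth follows after 60 bases, all in exon 3, which is 5916 bases long, and motifs 1, 5 and 10 are given. The fourth set is from CBFA2T2, a transcriptional corepressor, where the second listed motif ends 1 base before the stop codon.
SON motif 1: atccaacaccatGGACTcccagatgttagc
SON motif 5: aactagcactatGGACTcccagatgttagc
SON motif 10: aaccagcaccatGGACTcccagatgttagc
CBFA2T2 motif 1: ctgccagcacaaGGACTgggagcggcacca
CBFA2T2 motif 2: atcgacaccaacGGACTctgagccccggac

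The first SON motif starts on chromosome 21 at 33551484 and the tenth at 33551784 (hg38, plus strand). Listed SON positions were 420 bases away from those of the GENCODE transcript, so these SON coordinates and stretches are less certain. The CBFA2T2 motifs shown start on chromosome 20 at 33644433 and 33644638 (plus strand, exon 12 of 12).

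The first question was how the ratios of coding-motif lines were spread. Their median log2 ratio was 0.10 (interval 0.07 to 0.12), compared with 0.17 over all lines. The middle 50% of coding-motif lines ran between -0.40 and 0.64, and 10% of lines lay below -0.82 and 10% above 1.14. The lowest value was -2.99 and the highest 3.88. In all, 531 lines (13.0%, 12.0 to 14.1) were at least 2-fold higher in the TRMT10A knockdown, against 16.2% of all lines. Another 253 lines (6.20%, 5.50 to 6.98) were at least 2-fold lower, against 5.79% of all lines. Coding-motif lines thus had a smaller share of higher ratios than the table as a whole, and a share of lower ratios close to it. Most lines of the table list no motif. Those 20161 lines had a median of 0.21, with 17.6% at least 2-fold higher and 5.07% lower. The comparison with all lines is therefore largely one with lines that list no motif.

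The sign of the coding median depended on the zero point. How the authors scaled the libraries was not given in the sources used here. Centring all lines on their own median subtracts 0.17, after which the coding median was -0.07. Past 2-fold there were then 376 higher and 393 lower of the 4079 coding lines. Over all 26475 lines there were 3189 higher (12.0%) and 2416 lower (9.13%). The higher share of coding lines stayed below that of all lines. Among coding lines past 2-fold, higher ratios thus outnumbered lower ones as deposited, and were slightly fewer after centring. Coding-motif lines stood between those with a first motif in the 5' UTR (median 0.23) and those with a first motif in the 3' UTR (median -0.26). Of 5' UTR lines, 18.8% were at least 2-fold higher and 6.38% lower by as much. Of 3' UTR lines, 6.74% were at least 2-fold higher and 13.5% lower by as much. Coding lines thus had a larger higher share and a smaller lower share than 3' UTR lines.

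**Figure D1:**
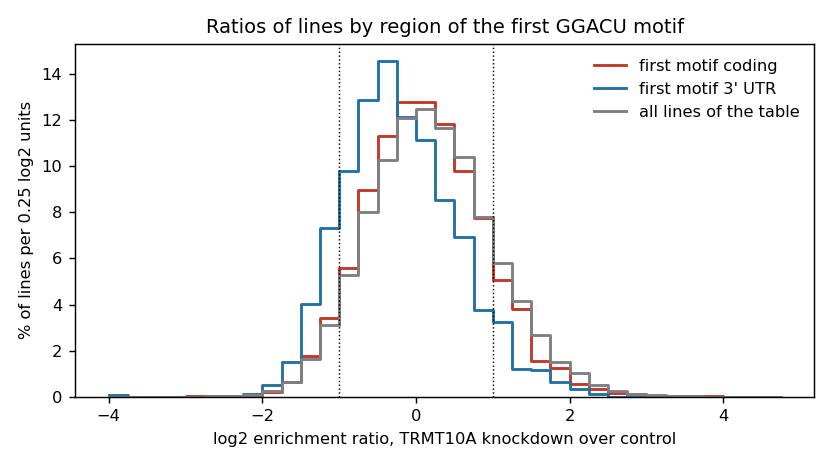
Distribution of log2 enrichment ratios, TRMT10A knockdown over control, in steps of 0.25, as the percentage of lines whose first motif is coding (n = 4079), whose first motif is in the 3' UTR (n = 1572), and of all lines (n = 26475). The coding curve lies close to that of all lines, with its median at 0.10 against 0.17, and the 3' UTR curve is shifted to the left with its median at -0.26. Dotted lines mark 2-fold.

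Common or unique status separated the coding-motif lines more than any other listed property. The file does not define the call, so it is unknown whether the ratio entered it. The 735 coding lines called unique had a median log2 ratio of 0.84, against -0.04 for the 3344 called common. Of the unique lines 300 (40.8%) were at least 2-fold higher and 1 was lower by as much, with 40.0% and 0.620% of all unique lines. Of the common lines 231 (6.91%) were at least 2-fold higher and 252 (7.54%) lower by as much, with 8.55% and 7.45% of all common lines. The higher share of unique lines and the lower share of common lines were thus close to those of the whole table. Among common lines the higher share was smaller for coding lines (interval 6.10 to 7.82) than for the whole table (8.17 to 8.94), which includes them. That share was 9.30% for common lines with no listed motif. It was 12.4% for those with a first motif in the 5' UTR and 2.90% in the 3' UTR. The coding set held a smaller share of unique lines, 18.0%, than the whole table with 24.4%. Even so, 9 of the 10 highest coding ratios were called unique, and all 10 of the lowest were called common.

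The number of motifs was the next property. Most coding lines, 3458 (84.8%), listed 1 motif, 534 listed 2, and 87 listed between 3 and 10. The median log2 ratio was 0.11 with 1 motif (interval 0.09 to 0.15), -0.00 with 2 (-0.09 to 0.07) and -0.04 with 3 or more (-0.16 to 0.11). The share of lines at least 2-fold higher was 13.7% with 1 motif, 9.36% with 2 and 8.05% with 3 or more. The share at least 2-fold lower was 5.78% with 1 motif, 9.18% with 2 and 4.60% with 3 or more, the last from 4 lines only. Lines with 2 or more motifs stood 0.12 below those with 1 motif in their medians.

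Of single-motif lines 18.7% were unique, and of the others 14.2%. Among unique lines the medians were 0.84, 0.80 and 0.95, the last from 8 lines. Among common lines the medians were -0.03 with 1 motif, -0.16 with 2 and -0.08 with 3 or more, so the 2 or more group stayed below the single-motif group (-0.14 against -0.03). The same order held in 3' UTR lines, where the median was -0.22 with 1 motif and -0.45 with 2 or more.

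**Figure D2:**
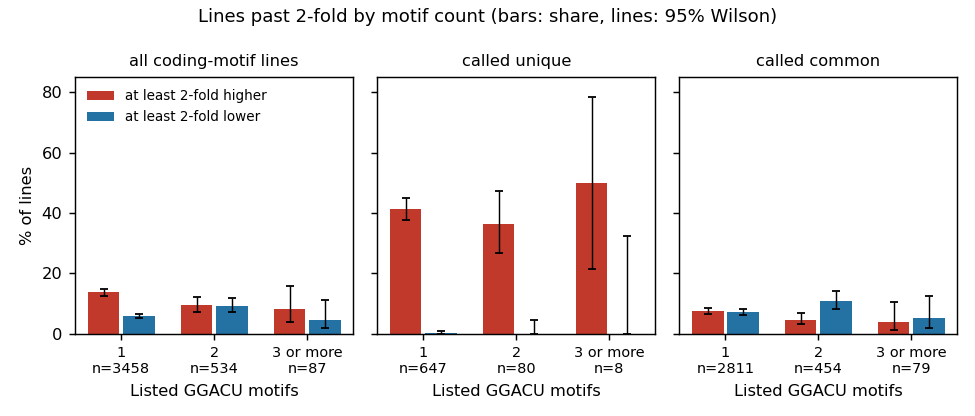
Percentage of coding-motif lines at least 2-fold higher or lower in the TRMT10A knockdown, by number of listed GGACU motifs, for all lines, lines called unique and lines called common; bars are shares and thin lines 95% Wilson intervals. Over all lines the higher share is 13.7% with 1 motif and 9.36% with 2, and almost no unique line is 2-fold lower at any motif count.

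The distance between motifs showed no clear order. In lines with exactly 2 coding motifs, the median log2 ratio was -0.08 for gaps of 5 to 30 bases (n = 125), -0.01 for 31 to 62 bases (n = 115), -0.00 for 63 to 109 bases (n = 119) and 0.02 for 110 to 494 bases (n = 120). The intervals of these medians overlapped widely. A further 62 lines began with a coding motif and ended with a 3' UTR motif, so that they spanned the stop codon. Their median was 0.07 with a wide interval (-0.32 to 0.36), 3 were at least 2-fold higher and 6 lower by as much.

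Motif position in the transcript was ordered with the ratio. First motifs lay between positions 17 and 20294, with a median of 1178. In 5 bins of about equal size the median log2 ratio was 0.23 at positions 17 to 496, 0.29 at 497 to 916, 0.04 at 918 to 1492, 0.05 at 1494 to 2529 and -0.05 at 2531 to 20294. The share of lines at least 2-fold higher was 17.9% in the first bin, 16.5% in the second, 11.4% and 11.7% in the next, and 7.60% in the last. The share at least 2-fold lower ran from 5.25% in the first bin and 3.81% in the second to 6.99%, 7.48% and 7.48% further along. The intervals of the first 2 bins (0.16 to 0.32 and 0.23 to 0.33) did not overlap those of the later bins, of which the highest reached 0.12.

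Split by call, the 5 medians of unique lines were 0.88, 0.84, 0.92, 0.76 and 0.77, with the third bin highest. The order was clearer among common lines, whose medians were 0.10, 0.10, -0.10, -0.08 and -0.17. The share of unique lines differed little between bins, from 16.4% in the last to 21.1% in the second. Single-motif lines gave 0.24 in the first bin and -0.02 in the last, and lines with 2 or more motifs 0.12 and -0.25. After centring, the first bin stood at 0.06, the second at 0.12 and the last at -0.22. Over all 4079 lines Spearman's rho between position and ratio was -0.139, a weak relation given as a description. Position is counted from the start of the transcript, so a low position also means a short distance to the cap, and high positions occur in long transcripts only.

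**Figure D3:**
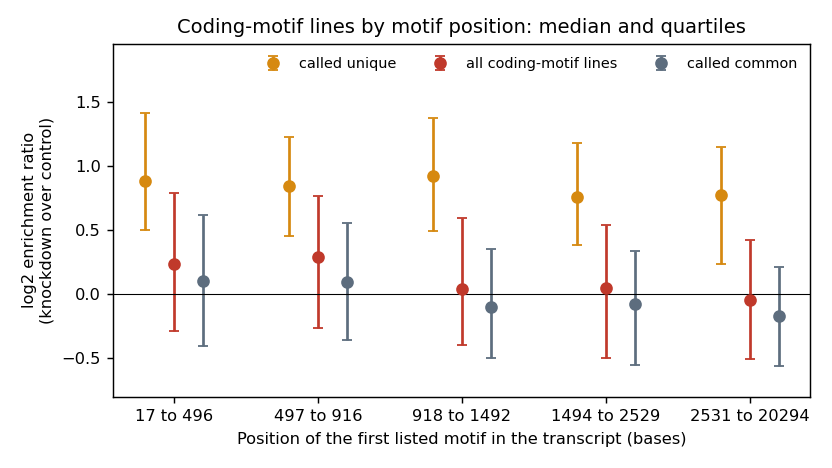
Median log2 enrichment ratio (points) with quartiles (bars) of coding-motif lines in 5 bins of first motif position, for lines called unique, all lines, and lines called common. Medians of all lines stand at 0.23 and 0.29 in the first bins and at -0.05 in the last, and common lines follow the same order from 0.10 to -0.17.

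The next question was which genes the ratios belonged to. The 199 exact joins had a median log2 ratio of -0.03, with 17 (8.54%) at least 2-fold higher and 16 (8.04%) lower by as much. These shares were close to those of all coding lines with 2 or more motifs, 9.18% and 8.53%. Over all lines of the table they were 16.2% and 5.79%. The 365 lines with several motifs that could not be joined had a median of 0.01. With the added joins by gaps the median was -0.04 over 256 lines, with 21 (8.20%) higher and 19 (7.42%) lower. Single-motif lines could not be assigned with confidence. Of these, 548 matched a single peak, but shifted positions gave a mean of 348.4 such matches, so that 63.6% would be false.

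Among the 10 highest exact joins, PCNX1, a pecanex-family membrane protein gene, held 2 places. Its peak at transcript positions 6591 to 6769 had a log2 ratio of 1.86, and its peak at 1101 to 1324 had 1.53. CDC23, a subunit of the anaphase-promoting complex, stood at 1.58. STIL, needed for centriole duplication, stood at 1.56. The RNA-binding protein gene MEX3A had 1.44 and NAF1, an assembly factor of H/ACA ribonucleoproteins, had 1.39. TRAPPC9 of the TRAPP vesicle tethering complex had 1.36, the kinase gene MAPK7 1.18, and SCNN1A, a subunit of the epithelial sodium channel, 1.16. The 2 PCNX1 peaks and those of CDC23 and SCNN1A were called unique, and the others named here were called common.

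The 10 lowest exact joins were all called common. After ZSWIM9, TMEM200B and CIAO1, a factor of cytosolic iron-sulfur assembly, came TEX264, a receptor for autophagy of the endoplasmic reticulum, at -1.60. SSRP1, a subunit of the histone chaperone FACT, stood at -1.52 and THADA at -1.36. The chromodomain helicase genes CHD6 and CHD8 had -1.25 and -1.24, RETREG2 had -1.24 and the ubiquitin-conjugating enzyme gene UBE2Z -1.23. Several of these lines had their first motif close to the end of the coding sequence. The first SSRP1 motif lay 70 bases before that end, that of CHD8 67 bases, TMEM200B 94 bases, UBE2Z 111 bases and TEX264 112 bases. Farther off were THADA (131), RETREG2 (214), ZSWIM9 (307) and CHD6 (735). Over all joined lines with matching regions, the 127 nearer the stop codon than the median had a median ratio of 0.03, with 12 at least 2-fold lower. The 128 farther lines had -0.07, with 6 lower, so the medians did not follow closeness to the stop codon.

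The first motif lay in the last exon in 9 of the 10 lowest exact joins and in 2 of the 10 highest. Over the 255 joined lines whose annotated regions were as listed, 83 had it in the last exon. These lines leave out CIAO1 (-2.03, exon 1 of 7), a low line with its first motif in an earlier exon. The contrast by last exon was chosen after the values were seen. Lines with the motif in the last exon had a median log2 ratio of -0.11 (interval -0.47 to 0.06), and 3 were at least 2-fold higher and 12 (14.5%) lower by as much. Lines with the motif in an earlier exon had a median of -0.00 (-0.08 to 0.15), and 18 were higher and 6 (3.49%) lower. The intervals of the medians overlapped. Of the 12 lower last-exon lines, 9 are the same lines among the 10 lowest that prompted the contrast, so these counts largely restate that observation.

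Among common lines alone, 2 of 78 last-exon lines were at least 2-fold higher and 12 lower, against 7 and 6 of 147 earlier-exon lines. These 12 are the same lower lines as above, so the common lines give no separate check. A second set held 100 lines with 2 motifs, joined by their gap with an expected false share of 11.7%. Its median was -0.37 (interval -0.78 to 0.06) over 30 last-exon lines and 0.08 (-0.19 to 0.34) over 70 earlier-exon lines. In that set 5 of 30 (interval 7.34% to 33.6%) and 5 of 70 lines (3.09% to 15.7%) were at least 2-fold lower. Both pairs of intervals overlapped. Among the 57 lines joined only by gaps, the lower counts were 1 of 19 and 2 of 38, so no contrast past 2-fold was seen there.

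**Figure D4:**
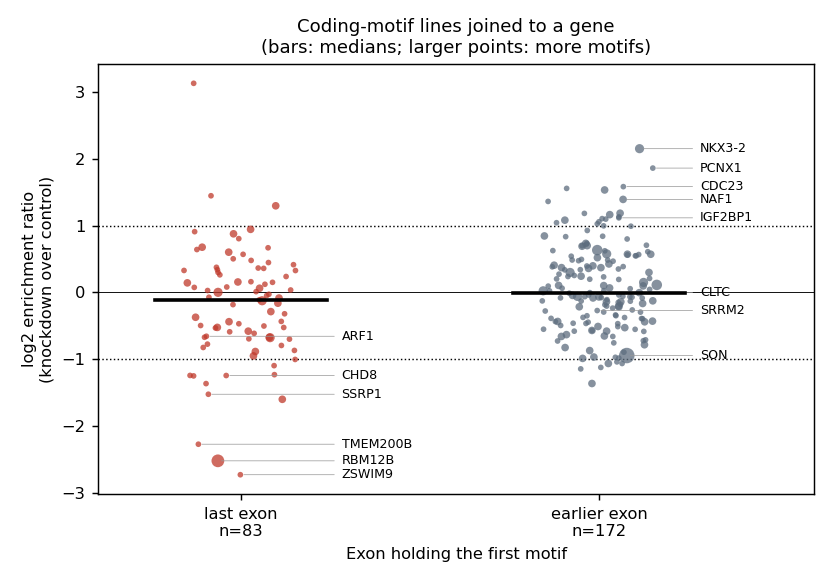
Log2 enrichment ratios of 255 coding-motif lines joined to a gene, split by whether the first motif lies in the last exon (n = 83) or an earlier exon (n = 172); black bars are medians (-0.11 and -0.00), larger points have more motifs, and dotted lines mark 2-fold. The 5 lowest points shown are in the last exon (ZSWIM9, RBM12B, TMEM200B, TEX264 and SSRP1), and most points above 2-fold are in earlier exons. CIAO1 (-2.03, exon 1 of 7), lower than TEX264 and SSRP1, is not shown because its annotated regions were not as listed.

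Several genes had more than 1 joined coding line, and these were picked out after their values were seen. CHD8 had 3. Its log2 ratio was -0.34 for the motif in exon 1 of 37, -0.58 for exon 31 and -1.24 for exon 37. DICER1, the nuclease that cuts microRNA precursors, had 0.23 in exon 23 and 0.61 in exon 25 of 29. FLNA, an actin crosslinker, had -0.13 in exon 3 and -0.06 in exon 22 of 48. ZFHX3 had -0.30 in exon 2 and 0.56 in exon 9 of 10, and KLHL21 had -0.46 in exon 1 and 0.48 in exon 2 of 4. Lines of the same transcript therefore differed by under 0.1 in FLNA and by over 0.8 in ZFHX3, KLHL21 and CHD8. The KLHL21 line in exon 1 was called unique and its line in exon 2 common, while the lines of the other genes named with it were common. Each value is a single ratio with no replicate.

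Most lines with many motifs lay within 2-fold, as did most lines of the table, where 16.2% were at least 2-fold higher and 5.79% lower. Of the 84 joined lines with 3 or more motifs, 7 (8.33%) were at least 2-fold higher and 4 (4.76%, interval 1.87 to 11.6) lower. Their median was -0.05. Among those with at least 4 motifs, NKX3-2, a homeobox transcription factor gene, had the highest log2 ratio (2.15, unique). Its listed positions were 560 bases away from those of the GENCODE transcript, the largest offset used. TRAPPC9 had 5 motifs in a second peak at 0.63, the nucleoporin gene NUP210 4 motifs at 0.58, ZMAT2 4 at 0.30 and RNASEH2C, a subunit of ribonuclease H2, 4 at 0.15. The histone methyltransferase gene ASH1L had 5 motifs at 0.11, SDE2 4 at 0.02 and CBFA2T2 4 at 0.00.

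On the lower side, the collagen gene COL4A1 had 4 motifs at -0.06, the sulfite oxidase gene SUOX 4 at -0.12 and TBC1D8 4 at -0.68. SON, with the 10 motifs shown above, had -0.94. RBM12B, an RNA-binding protein gene, had 7 motifs within a peak at positions 1950 to 2232 and a ratio of -2.52, in its last exon. The 2 lines with the most motifs were thus both below 0, and RBM12B was the only joined line with at least 4 motifs that was at least 2-fold lower.

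Few genes of any kind could be tied to a coding ratio. Joins covered 6.28% of coding lines and 248 genes, while the peaks lay on at least 9282 transcripts. The low counts for the short gene lists below are therefore no result about the m6A machinery. Of 13 m6A reader genes, all with peaks in the table, 1 was joined, IGF2BP1, with a log2 ratio of 1.11 for a peak at positions 356 to 510 in exon 1. No gene of the writer, eraser and tRNA methyltransferase lists was joined, although 9 of 10, 2 of 2 and 10 of 14 symbols had peaks. Genes listed in both replicates of the TRMT10A CLIP experiment, which maps RNA crosslinked to the protein, accounted for 6 joined lines. These were CLTC (-0.00), HNRNPH1 (-0.06), SRRM2 (-0.27), PDE3A (-0.55), ARF1 (-0.66) and SON (-0.94). All 6 were called common. Their median was -0.41 and none passed 2-fold as deposited (SON did after centring, at -1.11), against a median of -0.03 with 21 higher and 19 lower among the other 250, which include unique lines. Exact joins called common had a median of -0.08.

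Finally, the peaks of the gene columns were used to ask what the coding motifs share, without their ratios. Of the peaks, 96.2% were on an accession with a GENCODE transcript, and 3846 had their first GGACU in coding sequence, near the 4079 lines. On these transcripts 4478 coding motifs lay inside peaks and 13506 outside. Exon length separated them most. The exon that held the motif had a median length of 487.5 bases inside peaks and 173.0 bases outside, and exceeded 400 bases for 53.5% of motifs inside and 25.6% outside. Among internal exons, 14.7% of 2265 motifs in exons up to 100 bases were inside a peak. The share was 15.5% for over 100 and up to 150 bases, 14.3% up to 200, 23.4% up to 400, 45.5% up to 1000 and 37.4% for longer exons.

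**Figure D5:**
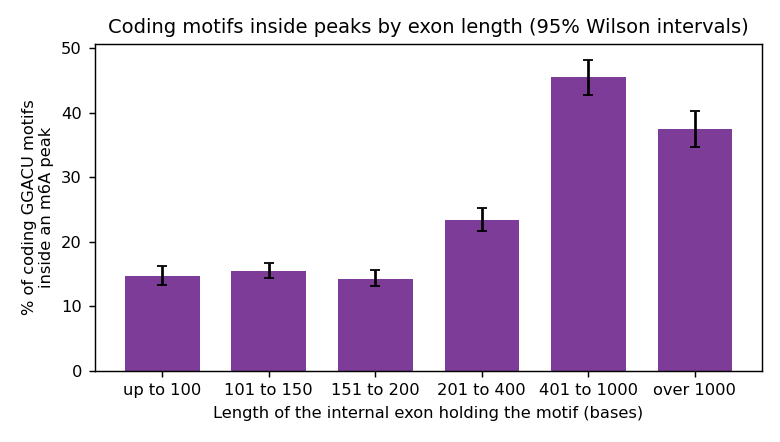
Percentage of coding GGACU motifs that lie inside an m6A peak, by length of the internal exon that holds them, with 95% Wilson intervals. The share is 14.3% to 15.5% in exons up to 200 bases and 45.5% in exons over 400 and up to 1000 bases.

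The last exon held 25.5% of coding motifs inside peaks and 12.4% of those outside. Within 400 bases of the end of the coding sequence lay 27.7% inside and 20.2% outside. Along the coding sequence, the first 10% held 12.8% of motifs inside peaks and the last 10% held 14.8%, compared with 10.1% and 9.68% outside. The reading frame differed less. The motif was read with GAC as a full codon for 57.2% of motifs inside peaks and 54.7% outside, with GGA as a full codon for 23.4% and 26.2%, and with ACU as a full codon for 19.3% and 19.1%. All 10 SON motifs were in the GAC frame. By frame, the joined lines had median log2 ratios of 0.01 over 144 lines in the GAC frame, -0.07 over 63 in the GGA frame and -0.08 over 48 in the ACU frame. At least 2-fold lower were 6.94% in the GAC frame, 3.17% in the GGA frame and 12.5% in the ACU frame, from 10, 2 and 6 lines. The intervals of these shares overlapped (3.82 to 14.8, 0.87 to 10.9 and 5.86 to 24.7), as did those of the medians. Motifs of exons longer than the median of 784 bases had a median ratio of -0.08 (interval -0.32 to 0.04) over 127 lines. The 128 lines in shorter exons had 0.04 (-0.08 to 0.25), so these intervals overlapped too. Last exons were included in both groups.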

How the data were processed

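Per line, the authors' deposited table holds a log2 ratio of m6A enrichment, knockdown over control, and its other columns (peak bounds, call, motif list) are used as deposited. The submitters' processing notes name TopHat2, Cuffdiff and hg38 without saying what each was used for. Peak caller and ratio scaling were not given in the sources used here. For CLIP, the tables hold counts of clusters per gene line, as deposited by the authors, and served only to know which genes are listed in both replicates.

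Ratios were summarised as deposited, with 2-fold as the threshold. GGACT was searched in GENCODE release 29 transcripts matching the table's RefSeq accessions. A listed position was the motif's first base plus 3. Exact joins needed all motifs of exactly 1 peak. Joins by gaps needed at least 3 motifs in the listed regions, listed positions inside the peak, no other motif there and an offset of at most 600 bases. The second set allowed 2 motifs and at most 20 bases. Joins were tried on simulated lines, with exact joins limited to motif patterns that belong to a single peak. For joins by gaps the simulated offsets were much smaller than 600 bases, so larger offsets were not covered. Python 3.11.15, NumPy 2.4.6 and SciPy 1.17.1 were used.

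Named genes were the 10 highest and 10 lowest exact joins, those with 4 or more motifs, in both CLIP replicates or on the lists of m6A writers, erasers, readers and tRNA methyltransferases. Of these genes, 1 is not reported here. Members, lists and rules were chosen with earlier results of these data known. Joins by gaps and the comparison by exon were chosen after seeing the data. Alternatives tried were the fold threshold, centring, common lines alone, the member rule, identical lines, bins and joins.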

Additional observations from a re-analysis of the deposited data

How the results depend on the processing

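Differences of medians by position, motif count and call kept their direction under the alternatives able to change them. Centring and the fold threshold cannot change a difference of medians, and counting identical lines once left these unchanged. For the call, only the rule of every motif coding changed the value, so its direction was hardly put to a check. The coding median, 0.10 as deposited, turned to -0.073 when centred and to -0.041 in common lines alone. Common lines alone left 231 lines and 7 joins at least 2-fold higher. Centring left 393 lines lower, a gap of 24.8 percentage points between unique and common lines in the higher share (33.9 as deposited), a median of -0.20 over the exact joins and 9 of these higher. At 1.5-fold, 1107 lines were higher and 683 lower, with 37 and 39 exact joins, and at 4-fold 54 and 6 lines, with 1 and 3 joins. The higher share of the last minus the first position bin was -10.4 percentage points at 2-fold, -14.2 at 1.5-fold and -2.56 at 4-fold. That of unique minus common lines was 46.7 at 1.5-fold and 4.53 at 4-fold. That of 2 or more minus 1 motif was -4.53 at 2-fold and -0.42 at 4-fold. Adding single-motif joins gave 747 joins with a median of 0.05 (-0.03 for exact joins), 79 higher and 47 lower; most added joins are false by the shifted positions. Adding joins by gaps for 2 or more motifs gave 361 joins, 33 higher and 29 lower. Counting identical lines once, lines with every or any motif coding, the last motif's position, 3 bins and gap joins of 3 or more motifs moved these results by less than their intervals or 1.5 times. Among named joins, centring took SCNN1A (0.99) and IGF2BP1 (0.94) below 2-fold and SON (-1.11) past it. No paired analysis was possible because each arm had 1 library of each kind and the result comes from no test. Depth behind the ratios is unknown, so single ratios carry no error.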
